A study of Mus musculus with 12 samples.

Results

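The mRNAs of 9 genes that mark lipid-associated macrophages, out of 35523 genes with summed transcript estimates, were followed from total RNA onto heavy polysomes in cultured cells of obese fat. The genes were Trem2, Gpnmb, Spp1, Lgals3, Cd9, Cd63, Mmp12, Atp6v0d2 and Apoe, markers known from work on obese fat. All 9 had enough reads to be tested in every comparison. The study set out to learn how rosiglitazone (Rosi), which activates PPARγ, shifts the mRNAs bound by translating ribosomes. Total RNA (input) and RNA from the pooled heavy fractions of a sucrose gradient (polysome) were sequenced after poly(A) selection.

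All groups were stromal vascular fraction (SVF) cells from epididymal fat of male Lepob/Lepob (ob/ob) mice, which lack leptin, at 12 weeks of age. Input Veh and polysome Veh came from cells given DMSO vehicle, and input Rosi and polysome Rosi from cells given 1 µM rosiglitazone. Every culture also received IBMX, dexamethasone and insulin, then insulin alone with drug or vehicle, and cycloheximide, which holds ribosomes on mRNA, before lysis on day 4. The series text gives 3 days in place of 4, and the protocol's 4 was kept. No lean animals were sequenced, so all 4 groups share the leptin deficiency. The cultures were mixed, the macrophages were not sorted, and a read in these libraries carries no record of its cell of origin.

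Each group had 3 deposited libraries of 17.4 M to 24 M estimated reads. Input Veh replicates 2 and 3 held equal values for all 117135 transcripts and were counted as 1 sample. Input Veh thus had n = 2 and the other groups n = 3. A fit below that leaves out either input Veh library has 1 library in that group, so its p-values carry little weight. The 9 genes were well covered: Atp6v0d2 had the fewest estimated reads, 285 to 696 per library, and Spp1 the most, 85692 to 163078. Values below are CPM, read counts scaled to a common library size, unless given as TPM, which also accounts for transcript length.

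Lipid-associated macrophages gather around dying or overfilled adipocytes, take up their lipid and break it down in lysosomes. TREM2 is the surface receptor that senses lipids and lipoproteins, signals through the adaptor TYROBP and is needed for these cells to form in obese fat. The other genes encode proteins of that state: the lysosomal and membrane proteins GPNMB, CD63, CD9 and ATP6V0D2, and the secreted proteins osteopontin (Spp1), galectin-3 (Lgals3), the elastase MMP12 and apolipoprotein E.

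On the mm10 assembly the genes lay on 8 chromosomes: Trem2 at chr17:48346401-48354147, Gpnmb at chr6:49036546-49070929, Spp1 at chr5:104435118-104441050, Lgals3 at chr14:47367751-47386160, Cd9 at chr6:125460266-125494791, Cd63 at chr10:128900989-128912822, Mmp12 at chr9:7344381-7369499, Atp6v0d2 at chr4:19876841-19922605 and Apoe at chr7:19696109-19699188. Of the 9, 8 had entries in the RefSeq promoter table (GRCm38.p6), 12 entries of 300 bases in all, and Atp6v0d2 is named only. Both strands were searched for motifs of factors known from macrophages. GAGGAA, the core bound by the myeloid factor PU.1, stood in 6 of the 12 entries, of 5 genes (Trem2, Spp1, Cd63, Mmp12 and Apoe), against 28.3% of 32851 promoters. TGANTCA, a loose form of the AP-1 motif with any base at its centre, stood in 3 of the 12, those of Trem2, Gpnmb and Mmp12, against 7.81% of promoters. The pattern reads alike on both strands. The centre base was A in the Trem2 match and G in that of Mmp12. TCATGTG, the M-box of MITF and its relatives, was found in 1 of the 12, upstream of Mmp12, against 3.77% of promoters, at a distance from the AP-1 match of the same window. Neither the E-box CACGTG (7.15% of promoters) nor the consensus PPAR response element (0.0396%) was found in the 12 windows. A match describes the letters in a window and is not a bound site. The windows of Trem2, the receptor, and of the secreted genes Spp1 and Mmp12 are shown 5′ to 3′ on the strand of the gene as examples of the PU.1 and AP-1 letters, with the motif in capitals, and the matches of Apoe, Gpnmb and Cd63 are not printed.
Trem2, AP-1, chr17:48346371-48346400, plus strand: cctcacgcccttctccctcctTGAATCAca
Trem2, PU.1 on the opposite strand, chr17:48346349-48346378, plus strand: agcctcctttccTTCCTCcctccctcacgc
Spp1, PU.1, chr5:104434986-104435015, plus strand: acaaaaccagagGAGGAAgtgtaggagcag
Mmp12, AP-1, start 2, chr9:7347318-7347347, plus strand: tgacatcaacagTGAGTCAgatagaggatt
Mmp12, PU.1 on the opposite strand, start 1, chr9:7344299-7344328, plus strand: cacttcacccacTTCCTCttccaagactcc
The AP-1 letters of Trem2 ended 3 bases before the start.

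The 9 genes spanned a wide range of abundance per length. In input Veh, Apoe (5524 ± 541 TPM, SD, n = 2) and Spp1 (5514 ± 216 TPM) ranked 11 and 12 among all genes, and their libraries overlapped. Cd63 followed at 3237 ± 181 TPM, then Lgals3 at 1377 ± 145 and Trem2 at 824 ± 142, each apart from its neighbours. Gpnmb (335 ± 25.9 TPM) and Cd9 (328 ± 17) overlapped, Mmp12 stood at 86.1 ± 0.215, and Atp6v0d2, a subunit of the proton pump that acidifies lysosomes, was lowest at 9.89 ± 0.96. Together the genes took 1.72% of the TPM of input Veh, 1.56% of input Rosi, 1.67% of polysome Veh and 1.6% of polysome Rosi.

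The order shifted at the top in the polysome pool. In polysome Veh, Spp1 led with 8110 ± 1045 TPM (rank 5 of all genes), Cd63 came next with 3681 ± 333 (rank 18), and Apoe followed with 2747 ± 558 (rank 33). Polysome Rosi had the same order of all 9 genes, with Spp1 at 7885 ± 650 TPM, Cd63 at 3921 ± 236 and Apoe at 2294 ± 151. In input Rosi, Spp1 (5659 ± 294 TPM) stood above Apoe (4238 ± 780) with no overlap. The ranges of neighbouring genes did not overlap in input Rosi or in either polysome group.

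**Figure D1:**
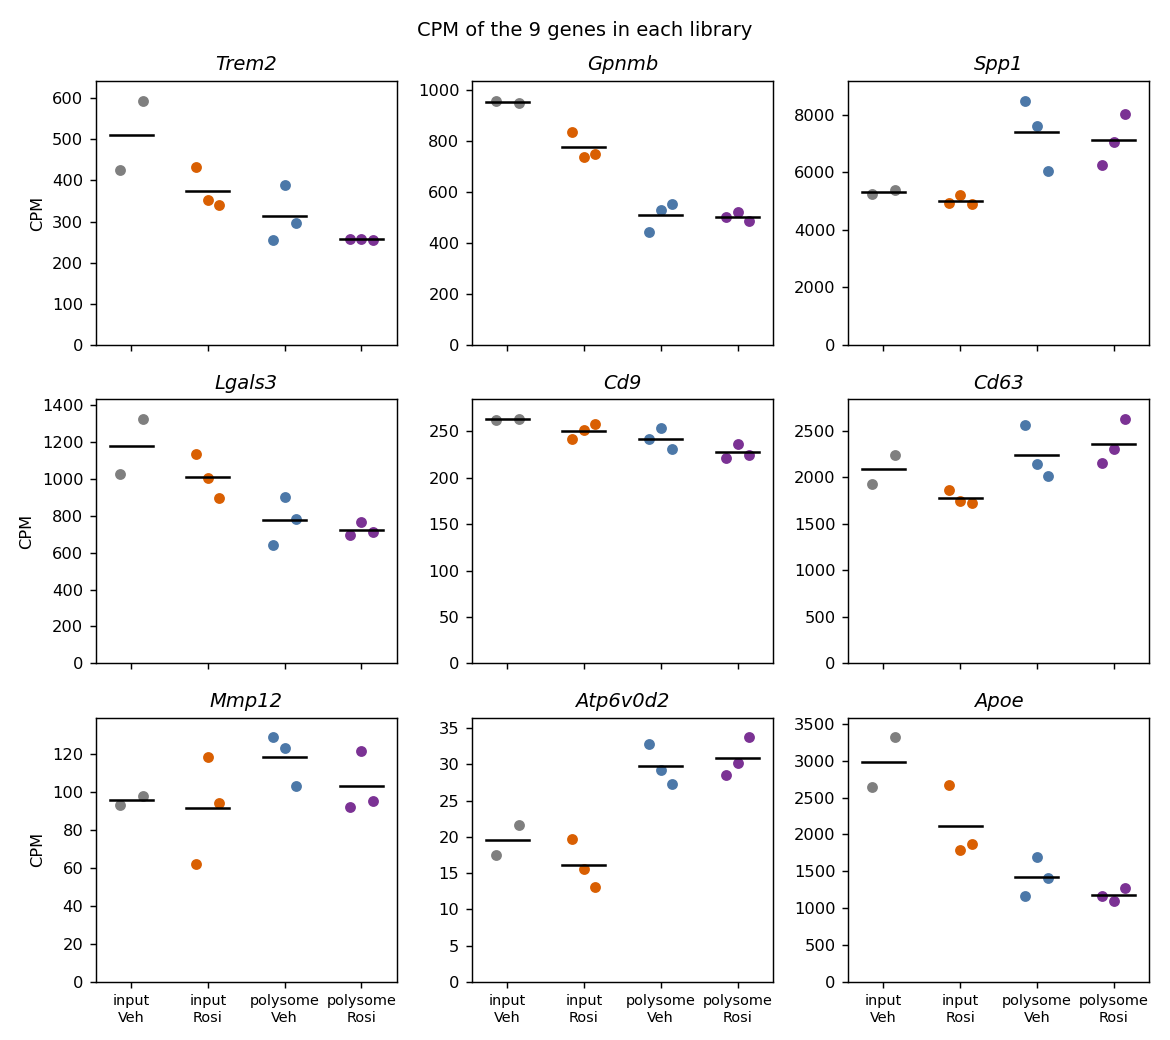
CPM of each gene (y axis, from 0, own scale per panel) in every library of the 4 groups (x axis), with dots for libraries and bars for group means. Trem2, Gpnmb, Lgals3 and Apoe sit lower in polysome than in input, Spp1 and Atp6v0d2 sit higher, and Cd9 lies between 222 and 263 CPM throughout.

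The mRNAs of the 9 genes did not load onto polysomes alike. Calls between polysome and input took an adjusted p under 0.05 and a log2 fold change over 1 in size, by edgeR's quasi-likelihood test with Benjamini-Hochberg adjustment over all genes. By this rule 1 of the 9, Apoe, was called in Veh, where 9.67% of 14042 genes were, and none in Rosi, where 11.3% were. By the adjusted p alone, 6 of 9 passed in Veh (49.3% of all genes), 2 higher in polysome (24.7%) and 4 lower (24.6%). In Rosi 7 of 9 passed (55.1%), 3 higher (29.1%) and 4 lower (26%). The median log2 fold change of polysome over input was -0.12 for the 9 genes in Veh (0.019 for all genes) and -0.14 in Rosi (0.00097 for all genes). For 15 general macrophage markers the medians were lower, -0.49 in Veh and -0.26 in Rosi. By the adjusted p alone, 10 of the 15 were lower in polysome and 3 higher in Veh, and 6 were lower and 4 higher in Rosi. A low polysome share was thus not particular to the 9 genes. In each treatment, libraries of the 2 fractions did not overlap for 8 of the 9. In polysome 5 were lower, beside 31.5% of all genes in Veh and 31.7% in Rosi, and 3 were higher, beside 32.5% and 33.7%. Values of polysome against input are relative to all mRNAs in each pool, so a lower value is a smaller share of the polysome pool than of total RNA.

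Trem2, the receptor, had 425 and 594 CPM in input Veh, and 254, 389 and 298 in polysome Veh. In Rosi it had 433, 353 and 339 CPM in input, and 257, 258 and 255 in polysome. Every polysome library lay below every input library of the same treatment. The log2 fold change of polysome over input was -0.70 ± 0.16 (SE) in Veh (quasi-likelihood adjusted p = 0.0025) and -0.55 ± 0.15 in Rosi (adjusted p = 0.00576), and neither passed the fold threshold. Without input Veh replicate 2, which had the highest level, the value in Veh was -0.44 (adjusted p = 0.0869).

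Apoe, the apolipoprotein with which macrophages export cholesterol, had 2645 and 3320 CPM in input Veh, and 1162, 1699 and 1405 in polysome Veh. In Rosi it had 2674, 1784 and 1875 CPM in input, and 1163, 1091 and 1275 in polysome. The fractions were again apart in both treatments, and replicate 1 was the highest of input Rosi. In Veh, Apoe was lower in polysome, at -1.07 ± 0.17 on the log2 scale (2.1-fold, edgeR adjusted p = 0.000136). In Rosi the log2 fold change was -0.84 ± 0.16 (adjusted p = 0.000342), under the fold threshold. The call in Veh turned on the threshold: the value was -0.95 without polysome Veh replicate 1 (adjusted p = 0.000295) and -0.89 without input Veh replicate 2 (adjusted p = 0.00481).

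Gpnmb, a glycoprotein of melanosomes and lysosomes, had 958 and 947 CPM in input Veh, and 445, 529 and 554 in polysome Veh. Under Rosi the values were 835, 739 and 750 CPM in input, and 501, 522 and 488 in polysome. Every polysome library lay below the input libraries of its treatment. The log2 fold change was -0.90 ± 0.10 in Veh (quasi-likelihood adjusted p = 6.65e-06) and -0.62 ± 0.094 in Rosi (adjusted p = 5.17e-05), and it passed by p in each of 16 alternatives in Veh and 17 in Rosi.

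Lgals3, the β-galactoside-binding lectin galectin-3, which coats damaged lysosomes, had 1029 and 1326 CPM in input Veh, and 644, 903 and 785 in polysome Veh. With Rosi there were 1134, 1007 and 900 CPM in input, and 696, 769 and 711 in polysome. The fractions did not overlap. The log2 fold change was -0.60 ± 0.14 in Veh (quasi-likelihood adjusted p = 0.00259, and 0.0754 without input Veh replicate 2) and -0.48 ± 0.13 in Rosi (adjusted p = 0.00488).

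Spp1, which encodes the secreted matrix protein osteopontin, was on the other side. It had 5242 and 5374 CPM in input Veh, and 8488, 7617 and 6037 in polysome Veh. The Rosi libraries held 4934, 5222 and 4886 CPM in input, and 6245, 7063 and 8007 in polysome. Every polysome library was above every input library. The log2 fold change was 0.48 ± 0.13 in Veh (quasi-likelihood adjusted p = 0.0083, and 0.0556 without input Veh replicate 1) and 0.50 ± 0.12 in Rosi (adjusted p = 0.00215).

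Atp6v0d2, the low-abundance proton pump subunit, had 17.4 and 21.6 CPM in input Veh, and 32.8, 29.2 and 27.3 in polysome Veh. The Rosi libraries held 19.8, 15.5 and 13.1 CPM in input, and 28.5, 30.2 and 33.7 in polysome. The fractions were apart in both treatments. Its log2 fold change was 0.60 ± 0.16 in Veh (quasi-likelihood adjusted p = 0.00646, and 0.0919 without input Veh replicate 1) and 0.94 ± 0.14 in Rosi (adjusted p = 6.08e-05), the highest of the 9 genes in both. Without input Rosi replicate 1 the value in Rosi was 1.11 (adjusted p = 2.58e-05), which passes the fold threshold.

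The tetraspanins CD9 and CD63 organise membrane proteins, CD63 mostly in late endosomes and lysosomes. Cd63 had 1932 and 2242 CPM in input Veh, and 2559, 2146 and 2016 in polysome Veh, with overlap, and a log2 fold change of 0.10 ± 0.12 (quasi-likelihood adjusted p = 0.504). In Rosi it had 1864, 1747 and 1729 CPM in input, and 2157, 2305 and 2628 in polysome, with no overlap, and the log2 fold change was 0.41 ± 0.11 (adjusted p = 0.00438). Cd9 was nearly flat, with log2 fold changes of -0.12 ± 0.089 in Veh (adjusted p = 0.287) and -0.14 ± 0.08 in Rosi (adjusted p = 0.153). Mmp12, the macrophage elastase, had 61.9 to 118 CPM over the input libraries and 92.3 to 129 over the polysome libraries, apart in Veh and overlapping in Rosi, with log2 fold changes of 0.31 ± 0.20 in Veh (adjusted p = 0.222) and 0.17 ± 0.18 in Rosi (adjusted p = 0.434).

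**Figure D2:**
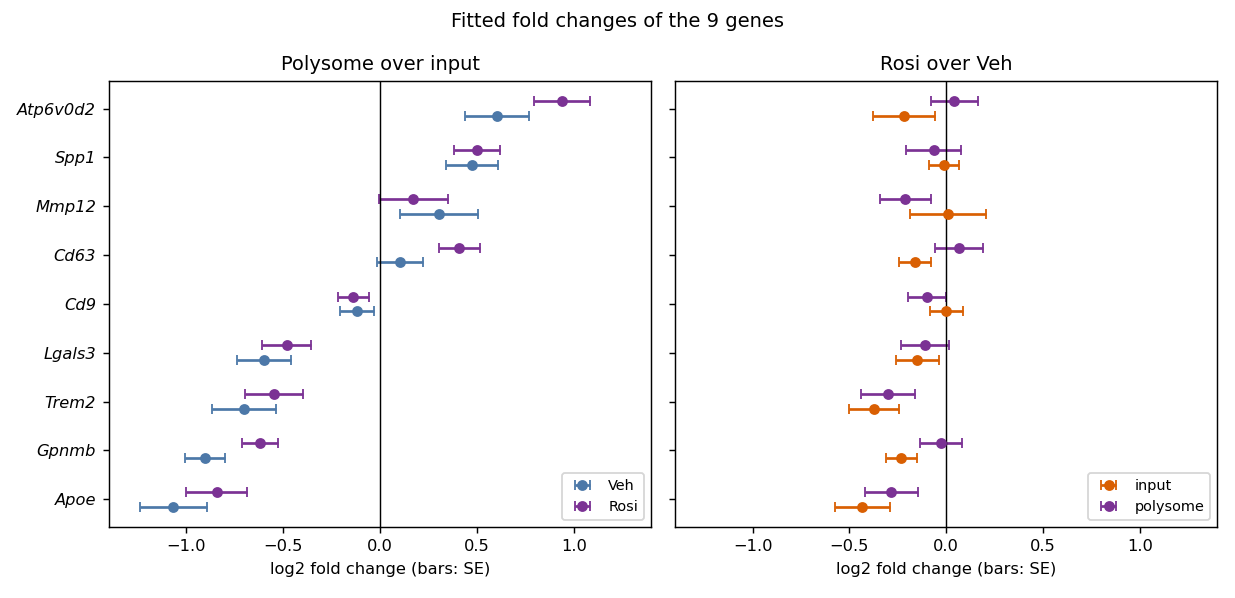
Fitted log2 fold change (x axis, bars are SE) of each gene (y axis) for polysome over input within each treatment (left) and Rosi over Veh within each fraction (right). On the left, Apoe, Gpnmb, Trem2 and Lgals3 lie below 0 and Atp6v0d2 and Spp1 above it in both treatments, and on the right every value lies between -0.43 and 0.068.

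Rosi changed none of the 9 genes past the threshold in input, where calls took an adjusted p under 0.05 and a log2 fold change over 0.2 in size. By this rule 1.34% of 13603 genes were called. The values leaned low: 8 of 9 were below 0, as were 48.1% of all genes, with a median log2 fold change of -0.16 for the 9 and 0.011 for all genes. At an unadjusted p under 0.05, 3 of the 9 were lower, beside 7.79% of all genes lower. The lowest value was that of Apoe, -0.43 ± 0.14 (quasi-likelihood adjusted p = 0.15), and 5.32% of genes had a lower one. Trem2 followed at -0.37 ± 0.13 (adjusted p = 0.169) and Gpnmb at -0.23 ± 0.081 (adjusted p = 0.175).

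The groups overlapped for some of these genes and not for others. For Gpnmb both Veh libraries (958 and 947 CPM) were above the 3 Rosi libraries (835, 739 and 750). For Trem2 and Apoe, input Rosi replicate 1 (433 and 2674 CPM) was above input Veh replicate 1 (425 and 2645). Spp1, Cd9 and Cd63 also had no overlap, all lower in Rosi. So 4 of 9 genes were apart in that direction, beside 23.9% of all genes, while 12.8% of all genes were apart in the higher direction. Of the 4, Spp1 had a log2 fold change of -0.013 ± 0.077 (quasi-likelihood adjusted p = 0.947), Cd9 of -0.00055 ± 0.085 (adjusted p = 0.998) and Cd63 of -0.16 ± 0.084 (adjusted p = 0.346). The CPM shown use library sizes set over all 4 groups, whereas these folds use sizes set within input, so the ranges can part where the fold is near 0. Spp1, for example, had means of 5308 CPM in input Veh and 5014 in input Rosi. Such a separation is not by itself a fall with Rosi, and the summed CPM of marker lists below are on the same scale.

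The outcome turned on single libraries. Without input Rosi replicate 1, Apoe (-0.63, quasi-likelihood adjusted p = 0.000249), Trem2 (-0.48, adjusted p = 0.00829) and Gpnmb (-0.28, adjusted p = 0.0266) were called lower, while 11.7% of all genes were called, 6.52% lower, 1580 genes in place of 182. Without input Veh replicate 1, which left 1 Veh library, Trem2 was at -0.59, and the median of the 9 was -0.26. Leaving out input Rosi replicate 2 or 3 called none of the 9, and 0.825% and 0.988% of all genes. Without input Veh replicate 2, which also left 1 Veh library, the median of the 9 was -0.057. Over these 5 fits Trem2 ranged from -0.59 to -0.12 and Apoe from -0.63 to -0.27.

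The macrophage markers also had low values with Rosi. All 15 were below 0 for Rosi over Veh in both fractions (48.1% of all genes in input, 52.3% in polysome), with medians of -0.36 in input and -0.22 in polysome, and 1 was called, Lyz2, the lysozyme gene of myeloid cells, which fell by 0.45 ± 0.077 on the log2 scale in input (edgeR adjusted p = 0.0112). Their summed level was 17782 and 20539 CPM in input Veh and 15162, 12814 and 12974 in input Rosi, with the highest Rosi value in replicate 1. It was 17217 to 21952 CPM in polysome Veh and 15411 to 19295 in polysome Rosi, with overlap. Without input Rosi replicate 1, 8 of the 15 were called lower, in a fit that called 6.52% of all genes lower. Leaving out Rosi replicate 3 gave 1 such call, and leaving out Rosi replicate 2 gave 0. Without Veh replicate 1 or 2, 1 Veh library remained, and the medians of the 15 were -0.47 and -0.23. In the fit without Veh replicate 2, 14 of 15 were below 0. In bulk RNA, fewer macrophages in a culture and less RNA per macrophage cannot be told apart. The part of these markers in the values of the 9 genes was not tested.

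The 9 genes were also expressed as a share of that sum. Trem2 was 2.64 ± 0.356% of the summed macrophage CPM in input Veh and 2.74 ± 0.123% in input Rosi, then 1.57 ± 0.355% in polysome Veh and 1.54 ± 0.193% in polysome Rosi (SD). Apoe was 15.5 ± 0.912% and 15.3 ± 2.01% in input, then 7.12 ± 1.59% and 7.03 ± 0.476% in polysome. The libraries of Veh and Rosi overlapped for both genes in both fractions. Spp1 was 27.8 ± 2.35% in input Veh and 37 ± 4.15% in input Rosi, beside a log2 fold change in CPM of -0.013, since the sum itself had a mean of 19161 CPM in input Veh and 13650 in input Rosi. A gene of level CPM has a higher share wherever that sum is lower, so these shares restate the marker values and no test was run on them. Lyz2 alone made up 10685 of the 19161 CPM. It was higher in polysome than in input, at 0.45 ± 0.15 on the log2 scale in Veh and 0.69 ± 0.13 in Rosi. Of the 15 markers 11 were below 0 for polysome over input in Veh and 10 in Rosi. The lower shares of Trem2 and Apoe in polysome therefore depend on the level of Lyz2 in the sum.

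In polysome, Rosi called none of the 9 genes either, and 0.655% of 13436 genes. The Rosi and Veh libraries overlapped for all 9, while 8.96% of all genes had no overlap. Trem2 had a log2 fold change of -0.30 ± 0.14 and Apoe of -0.28 ± 0.14, the lowest of the set, with unadjusted quasi-likelihood p of 0.0504 and 0.0582 and adjusted p of 1. The other 7 lay between -0.21 (Mmp12) and 0.068 (Cd63), 7 of the 9 were below 0 (52.3% of all genes), and the median of the 9 was -0.10, against -0.0078 for all genes. The spread between the polysome Rosi libraries of Trem2 was small (256 ± 1.59 CPM, SD, n = 3) and that of polysome Veh was large (313 ± 68.7).

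Translation efficiency, tested as the interaction of fraction and treatment, was called by edgeR for 0 of the 9 genes and 0 of 14042 genes (0%). At an unadjusted p under 0.05 it was 0 of 9 and 961 of all genes (6.84%), and DESeq2 called 1 gene, Gm28437, named here after its value was seen. The difference in log2 fold change between Rosi and Veh was 0.28 ± 0.14 for Gpnmb (quasi-likelihood adjusted p = 0.728), 0.31 ± 0.16 for Cd63 (adjusted p = 0.732), 0.33 ± 0.22 for Atp6v0d2 (adjusted p = 0.748) and between -0.14 and 0.22 for the other 6. Values were below 0 for 2 of 9 and for 40.9% of all genes. The 4 groups share libraries between these comparisons, so the values of one comparison are not independent of those of the next.

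The annotated transcripts of GENCODE M21 that carried the reads differed between the genes. Reads of Atp6v0d2 fell on 1 transcript (100%), and those of Cd9 nearly so (99.7 to 100%). Trem2 reads were mostly on Trem2-201, 74.4 to 79% per library, which encodes 227 codons, and 13.5 to 18.4% on Trem2-202, which encodes 249. Lgals3-204 held 71.9 to 74.9% of Lgals3 reads as group means, and Cd63-201 91.5 to 94.1% of those of Cd63.

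Gpnmb showed a difference between the fractions. Its shorter coding transcript, Gpnmb-203 (526 codons against 574 in Gpnmb-201), held 6.68 to 8.97% of reads in input Veh and 5.09 to 9.41% in input Rosi. It held 3.07 to 4.41% in polysome Veh and 3.37 to 4.27% in polysome Rosi, so no polysome library reached the lowest input library. These shares are estimates from reads common to both transcripts, and no test was run on them.

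In Apoe, 30 to 36.8% of reads were assigned to Apoe-202, a 728-base transcript annotated without a coding sequence, in every group, polysome included. In Mmp12, Mmp12-204, annotated as a target of nonsense-mediated decay, took 31.2 to 46.2%. Its mean share (± SD) was 39.9 ± 1.06% in input Veh and 33.3 ± 3.39% in input Rosi. In polysome it was 40.5 ± 3.45% in Veh and 44.7 ± 1.38% in Rosi. The Apoe and Mmp12 shares are estimates too, which may rest on reads common to several transcripts, and no test was run on them. With protein-coding transcripts alone, Apoe in Veh was -0.98 for polysome over input (quasi-likelihood adjusted p = 0.00055), just under the fold threshold, and Mmp12 in Rosi was -0.10 (adjusted p = 0.703) where it had been 0.17.

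**Figure D3:**
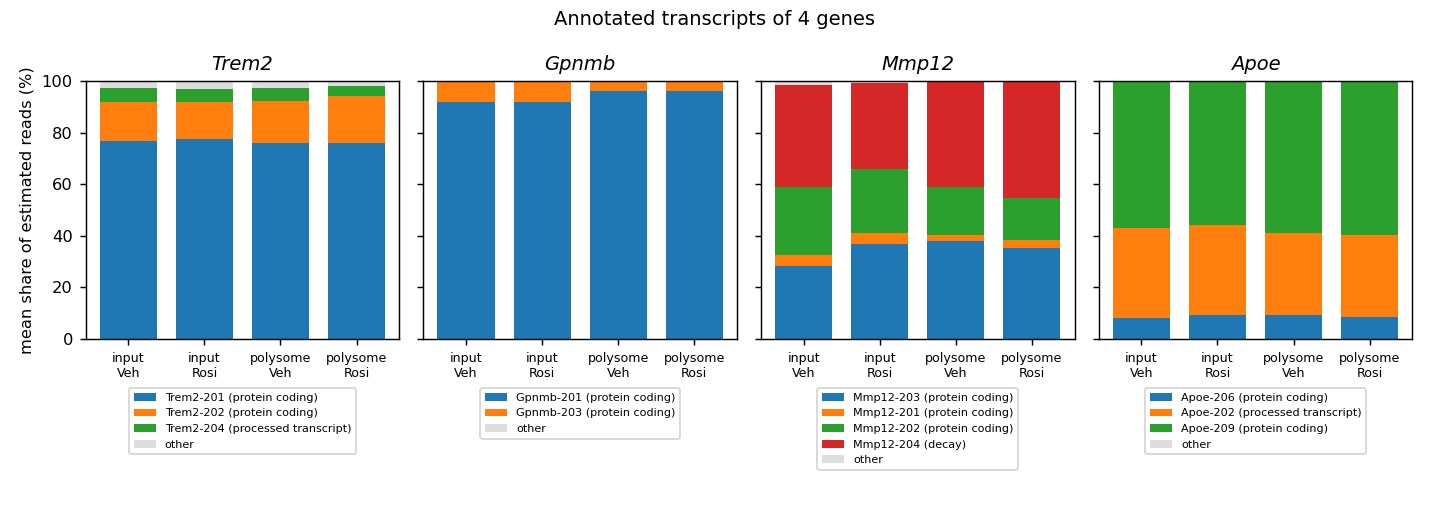
Mean share of a gene's estimated reads (y axis, percent) assigned to each annotated transcript in the 4 groups (x axis) for Trem2, Gpnmb, Mmp12 and Apoe, as stacked bars with no error drawn. Gpnmb-203 is narrower in the polysome bars (3.7 and 3.92%) than in the input bars (7.83% in both), and the noncoding Apoe-202 takes 31.7 to 35% in all groups.

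Coding length bounds how many ribosomes an mRNA can carry, so the fold of each gene was set beside that of genes of like length. Over 13530 genes with a coding sequence, the median log2 fold change of polysome over input in Veh went from 0.49 for 1 to 100 codons down to -0.29 above 1000 codons. Longer coding sequences, which can carry more ribosomes, thus had lower rather than higher medians. The cause of this trend was not tested. Trem2 (227 codons) and Lgals3 (264) lay under the lower quartile of genes of 201 to 300 codons, -0.26, whose median was 0.13. Apoe (311 codons) lay under the lower quartile of 301 to 400 codons, -0.40, and Gpnmb (574 codons) under that of 401 to 600 codons, -0.54. Atp6v0d2 (350 codons) was above the upper quartile of its class, 0.48. Spp1 (294), Cd63 (238), Cd9 (226) and Mmp12 (473) were between the quartiles of theirs. The 473 codons are those of Mmp12-201, which held only 2.1 to 5.91% of Mmp12 reads, so the class of Mmp12 is uncertain. In Rosi, Trem2 (-0.55), Lgals3 (-0.48), Apoe (-0.84) and Gpnmb (-0.62) were again under the lower quartiles of their classes (-0.20, -0.20, -0.33 and -0.46), and Atp6v0d2 (0.94) above the upper quartile (0.46).

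**Figure D4:**
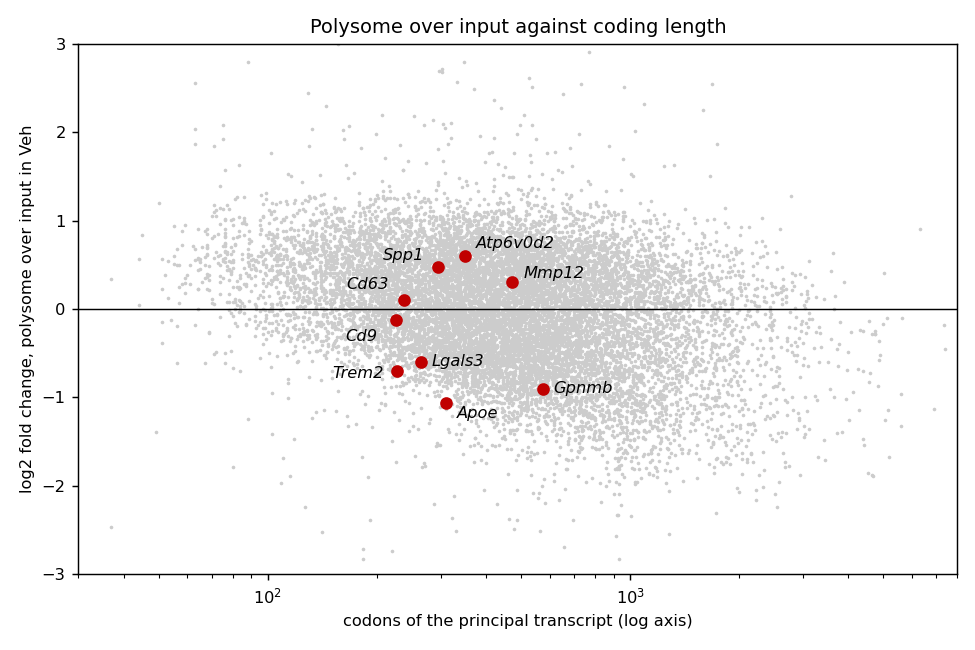
Log2 fold change of polysome over input in Veh (y axis) against the codons of the principal transcript (x axis, log scale) for the genes tested (grey) and the 9 genes (red), with 27 of 13530 genes outside the plotted range. Atp6v0d2 (0.60) and Spp1 (0.48) lie highest of the 9, and Apoe (-1.07) and Gpnmb (-0.90) lie lowest.

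Of 10 genes of TREM2 signalling, 7 passed by adjusted p in polysome over input in Veh (49.3% of all genes), 4 higher (24.7%) and 3 lower (24.6%), with a median of -0.024. Tyrobp, the adaptor that pairs with TREM2, was higher in polysome, at 0.41 ± 0.16 in Veh (quasi-likelihood adjusted p = 0.0458) and 0.55 ± 0.14 in Rosi (adjusted p = 0.0041), where Trem2 itself was lower. The proteases that shed TREM2 from the surface were higher as well: Adam10 had 0.71 ± 0.14 in Veh and 1.16 ± 0.12 in Rosi, and Adam17 had 0.68 ± 0.12 and 0.70 ± 0.10.

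The enzymes downstream of the receptor lay on the low side. Inpp5d, the lipid phosphatase SHIP1 that dampens the signal, fell by 1.64 ± 0.16 on the log2 scale in Veh (edgeR adjusted p = 1.65e-06). Plcg2, the phospholipase, fell by 1.58 ± 0.15 (adjusted p = 1.46e-06) and the kinase Syk by 1.05 ± 0.12 (adjusted p = 8.77e-06). In Rosi the values were -1.41 ± 0.15 for Inpp5d, -1.25 ± 0.14 for Plcg2 and -0.67 ± 0.11 for Syk. Rosi over Veh called none of the 10 in either fraction, with 9 of 10 below 0 in input (median -0.28, 48.1% of all genes below 0) and 8 of 10 in polysome (median -0.12, 52.3% below 0). Without input Rosi replicate 1, 5 of the 10 were called lower in input, where that fit called 6.52% of all genes lower. Without input Rosi replicate 2 or 3, 0 of 10 were. Without input Veh replicate 1 or 2, which left 1 Veh library, the medians of the 10 were -0.40 and -0.15.

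Of 16 genes of lipid handling in these macrophages, 3 rose with Rosi in input (1.34% of all genes called) and 5 in polysome (0.655%), and none was called lower. Fabp4, a fatty acid carrier of adipocytes and macrophages, rose by 2.73 ± 0.093 on the log2 scale in input (quasi-likelihood adjusted p = 2.76e-09) and by 3.11 ± 0.16 in polysome (adjusted p = 1.45e-07). The fatty acid transporter Cd36 rose by 0.89 ± 0.10 in input (adjusted p = 0.000478) and 1.03 ± 0.12 in polysome, and the droplet coat Plin2 by 0.47 ± 0.087 (adjusted p = 0.0177) and 0.58 ± 0.11. Nr1h3, the oxysterol receptor LXRα, was called in polysome at 0.76 ± 0.14 (quasi-likelihood adjusted p = 0.0271). Apoc1, an apolipoprotein encoded beside Apoe, was called there at 2.52 ± 0.50 (adjusted p = 0.0397), but on very few reads. It had 0.052 to 0.327 CPM in polysome Veh and 1.17 to 1.78 in polysome Rosi, so the size of this fold is uncertain. In input Nr1h3 had 0.70 ± 0.17 (adjusted p = 0.0702), and Apoc1 had 0 and 0.0533 CPM in Veh and 0.396 to 0.787 in Rosi (adjusted p = 0.062), too few reads for a fold. The interaction test, which called no gene, did not call either of them. Adipocytes express several of these genes too, and the summed adipocyte markers, Fabp4 among them, were 90.3 to 93.9 CPM in input Veh and 676 to 766 in input Rosi. The part of adipocytes in these values was not tested.

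Of 20 lysosomal genes and their regulators, 18 were below 0 in input for Rosi over Veh (48.1% of all genes) and 19 in polysome (52.3%), with medians of -0.18 and -0.12, and none was called in either fraction. In polysome over input in Veh, 17 of the 20 passed by adjusted p (49.3% of all genes), 11 lower (24.6%) and 6 higher (24.7%). Psap, which encodes the saposin precursor, fell by 1.26 ± 0.13 on the log2 scale (edgeR adjusted p = 3.49e-06) and Grn, the progranulin gene, by 1.12 ± 0.13 (adjusted p = 5.66e-06). Among the MiT/TFE factors that drive lysosomal genes, Tfec was called higher at 1.10 ± 0.19 (adjusted p = 0.000226), and Mitf was higher by p alone at 0.35 ± 0.14 (adjusted p = 0.042), while Tfeb (-0.98 ± 0.18) and Tfe3 (-0.89 ± 0.15) were lower by p alone. Of the 3 other V-ATPase subunits listed, none was higher: Atp6v1b2 had -0.61 ± 0.092 (adjusted p = 8e-05), Atp6v0d1, the widely expressed paralog, had -0.29 ± 0.096 (adjusted p = 0.0213), and Atp6v1a had 0.12 ± 0.11 (adjusted p = 0.371). Of the 8 other tetraspanins, 7 passed by p in Veh (49.3% of all genes), 5 lower (24.6%) and 2 higher (24.7%), from -1.24 ± 0.16 for the leukocyte tetraspanin Cd37 (adjusted p = 2.03e-05) to 0.46 ± 0.10 for Tspan3 (adjusted p = 0.00188).

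Atp6v0d2 and Mmp12 are also known from osteoclasts and fused macrophages, so 10 genes of those cells were looked up. Only 6 of the 10 were tested in input. The fusion genes Ocstamp (at most 0.157 CPM), Dcstamp (at most 0.428) and the calcitonin receptor gene Calcr (at most 0.176) were near 0 in all libraries, and Acp5 lay between 0.954 and 2.42 CPM. Others of the list were well above 0: Ctsk had 128 to 171 CPM and Itgb3 14.3 to 27.2 CPM over all libraries. Nfatc1 and Tnfrsf11a also had enough reads to be tested. No gene of the list was called for Rosi in either fraction.

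Markers of other cells set the limits of the label. The smooth muscle markers summed to 11568 and 11439 CPM in input Veh replicates 1 and 2 and the progenitor markers to 4760 and 3922. Col1a1 alone held 4359 and 3580 CPM of the progenitor sum. Dpp4 (0.856 and 0.213 CPM) and Cd34 (2.39 and 2.67) of that list were low. So mRNAs of cells other than macrophages were abundant, but the progenitor sum mostly measures Col1a1. Mesothelium (53.9 to 63.8 CPM) and endothelium markers (13.9 to 19 CPM) were low in input Veh. Of 4 epididymis markers only Crisp1 had reads, but at 124 and 112 CPM in input Veh, above the mesothelium sum. Genes such as Cd9, Cd63, Lgals3 and Apoe are expressed by cells other than macrophages as well. Resident macrophage markers summed to 550 and 653 CPM in input Veh and 398 to 476 in input Rosi, of which Cbr2 was called lower (-0.74 ± 0.15, edgeR adjusted p = 0.0355), and Timd4 reached at most 0.088 CPM. Itgax, the dendritic and lipid-associated macrophage integrin CD11c, was low, 6.31 to 9.6 CPM in input. Of the lymphocyte, neutrophil, mast cell and dendritic markers, Cd3e, S100a9, Retnlg, Cpa3, Fcer1a and Cd209a had no reads in any library. The other markers of these lists had some reads. In input Veh the dendritic list summed to 7.84 to 10.3 CPM and the mast cell list to 3.63 to 6.06. The neutrophil list summed to 1.9 to 2.29 CPM and the lymphocyte list to 0.0612 to 0.16.

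The genes whose levels ran most like each of the 9 were taken as the 3 with the smallest root mean square difference in log2 CPM, centred on each gene's mean, over 11 libraries and 11448 genes. For Trem2 these were Cyth4 (0.072), Pstpip1 (0.077) and Blvrb (0.08), and for Apoe Pald1 (0.086), Cd37 (0.087) and Cfp (0.10). Gpnmb was matched by Puf60 (0.049), Tor4a (0.051) and Usp20 (0.053), Spp1 by Anp32a (0.057), Nip7 (0.062) and Ppp6c (0.063), and Lgals3 by Polr1c (0.074), Slc25a28 (0.077) and Tmem106a (0.078). Cd63 was matched by Trappc1, Cops6 and Alg5, Cd9 by Jmjd6, Appl2 and Prkar1a, and Atp6v0d2 by Fam76b, Tmem263 and Cmc1. Mmp12 had no such close match, with Gnb4 and Slc40a1 at 0.15 and Naip6 at 0.16. Within the 9, the closest pairs were Trem2 with Lgals3 (0.12) and Spp1 with Cd63 (0.15), and the farthest was Atp6v0d2 with Apoe (0.88). About its own mean Apoe varied most over the 11 libraries (0.53) and Cd9 least (0.084).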

How the data were processed

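The submitters' processing notes name bcl2fastq 2.17, FastQC, Salmon, DESeq2 and the build mm10. The authors deposited an estimated count and a TPM per transcript for each library. Libraries titled with the tissue name alone were taken as the polysome pool, since the others are titled input. The strandedness of the kit is not given in the sources used here.

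Of 117135 transcripts, 115973 matched GENCODE M21, and the 1162 others held 0.381 to 0.464% of reads. Summing these estimated counts gave 35523 genes, whose sums were rounded. Of 12 deposited libraries 11 were used, because 2 were identical. CPM uses TMM library sizes of a fit of all groups.

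The main test was edgeR's quasi-likelihood F test (edgeR 4.0.16, R 4.3.3), two-sided, on genes kept by filterByExpr, with TMM factors and Benjamini-Hochberg adjustment. Rosi against Veh had 1 fit per fraction, while polysome against input and the interaction came from a model of all 4 groups. Each SE is the size of the log2 fold change divided by the root of its F. The scripts were tested on simulated counts. The labels call the samples biological replicates without naming animals or cultures, so p-values measure the spread between libraries, which may be technical. Intervals from PCR reads were not computed.

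Alternatives were DESeq2 1.42.0, limma 3.58.1 on log2(TPM + 1) where 2 libraries reached a TPM of 1, upper quartile and RLE factors, a count filter that was absent or stricter (10 counts in all libraries of a group), each library left out, all 12 libraries, a block for replicate number, other sets of groups in the fit, no fold threshold, and, chosen after seeing the data, protein-coding transcripts alone.

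The 9 genes and all lists came from general knowledge of the cells and pathways and were chosen with earlier results of these data known. Beside the 9, the genes named were up to 4 of smallest p per list, those needed for a count, and the 3 most alike to each of the 9. Coding length is that of the APPRIS principal transcript in GENCODE M21, used in place of the protein length first planned. Cd9 overlaps antisense Gm28809 and Spp1 overlaps Gm42793, which were not quantified, and Mmp12 overlaps Mmp1b on the other strand, with 1.9 reads per library on average.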

Additional observations from a re-analysis of the deposited data

How the results depend on the processing

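The count of the 9 genes called for Rosi in input went from 0 to 2 with no count filter, to 1 with all 12 libraries and to between 0 and 3 with a library left out. In polysome over input it went from 1 to 0 in Veh with protein-coding transcripts only and to 6 without the fold threshold, and from 0 to 7 in Rosi without it, with a range of 0 to 1 when a library was left out of either. Genes called over the whole table in input went from 182 to 400 with DESeq2, 907 with no filter, 1054 with all 12 libraries, 57 with limma, 77 in 1 fit of all groups and between 66 (without input Veh replicate 2) and 1580 (without input Rosi replicate 1) with a library left out, with 111 without input Rosi replicate 2. In polysome they went from 88 to 189 with no filter, 37 with limma and between 55 (without polysome Veh replicate 2) and 179 (without polysome Veh replicate 1) with a library left out. For polysome over input limma gave 844 in place of 1358 in Veh and 876 in place of 1593 in Rosi. For translation efficiency the count went from 0 to 57 with no filter, 1 with protein-coding transcripts only (Hus1) and 9 without polysome Veh replicate 1. A sign turned in these cases. For Rosi in input, Mmp12 was -0.008 with DESeq2, -0.0073 with RLE factors, -0.0071 with all 12 libraries, -0.065 in 1 fit of all groups and -0.23 to 0.22 with a library left out. Cd9 was 0.00042 with no filter, 0.053 with limma and -0.034 to 0.029 with a library left out. Spp1 was 0.037 with limma and -0.054 to 0.0038, and Lgals3 -0.32 to 0.038, with a library left out. In polysome, Gpnmb was 0.0036 with limma, and leaving out a library gave -0.11 to 0.037 for Gpnmb, -0.19 to 0.049 for Spp1, -0.23 to 0.021 for Lgals3, -0.015 to 0.18 for Cd63 and -0.028 to 0.12 for Atp6v0d2. For polysome over input, leaving out a library gave -0.012 to 0.21 for Cd63 in Veh and -0.045 to 0.40 for Mmp12 in Rosi, which was -0.10 with protein-coding transcripts only. For translation efficiency Spp1 was -0.045 with upper quartile factors and -0.072 with limma, and leaving out a library gave -0.099 to 0.14 for Spp1, -0.079 to 0.29 for Lgals3, -0.054 to 0.015 for Cd9, -0.11 to 0.37 for Trem2 and -0.35 to 0.093 for Mmp12. The cause of these shifts was not tested.

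Deviations of samples with the same replicate number correlated at -0.23 to 0.11. With so few libraries per group, this cannot show whether samples of 1 number were paired. The paper took input RNA before fractionation, so input and polysome of a number may come from 1 culture. The main fits used no pairing. With that number as a block, Mmp12 in input was -0.096, no call among the 9 genes changed, and 187 genes were called in input in place of 182.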
